A study of Homo sapiens with 4 samples.

Results

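The ETS factors are transcription factors that share an ETS domain, which binds DNA around a core of the letters GGAA. The 10 genes described here are ELF3, EHF, ELF5, SPDEF, ETS1, ETS2, ETV1, ETV4, ETV5 and ELK1. They were chosen by name because ETS factors can drive the promoter of MMP7, with earlier results of these data known. The genes are 10 of the 31033 gene names on the array, which carried 19 probes named for them among its 50238 non-control probes. There was 1 probe for each of 4 genes and more than 1 probe for each of 6 genes. Of the 19 probes, 15 were well above background on all 4 arrays, 1 was above it on no array, and 17 were tested.

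The study used HCT116, a cell line derived from a colorectal carcinoma. It compared a clone carrying the vector (vec) with a clone stably transfected with a plasmid that encodes an shRNA against plakophilin 3 (shpkp3-2). PKP3 encodes a desmosomal plaque protein that is needed for cell to cell adhesion. Each of 4 single color arrays, 2 per clone, received total RNA labeled with the dye Cy3. The submitters describe the cells as kept under drug selection and name the arrays as biological replicates. The first RNA collection gave vec 1 and shpkp3-2 1, and the second gave vec 2 and shpkp3-2 2. Each genotype is a single clone, so that knockdown and clone cannot be told apart. All 4 arrays lay on 1 slide, where position on the slide followed the clone, so that these cannot be told apart either.

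The ETS family falls into groups by sequence and role. ELF3, EHF and ELF5 form the ESE group of factors found mainly in epithelial cells, where they act on differentiation genes, and SPDEF is an epithelial factor known for its part in secretory goblet cells of the intestine. ETS1 and ETS2 form the group that gave the family its name and respond to the RAS-ERK cascade. ETV1, ETV4 and ETV5 form the PEA3 group, whose transcripts follow ERK signaling in many tissues, while ELK1 is a ternary complex factor that works with SRF at immediate early genes.

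The probe sequences show what was measured for these related genes. Of the 5 probes shown, which lie in the coding part of their mRNA, those of SPDEF, ELF5 and ETS2 lie in the part encoding the ETS domain. Capitals mark the bases that the SPDEF and ELF5 probes share when laid side by side without gaps, and the other probes are in lower case. Each is 60 bases long and is given 5′ to 3′.
SPDEF probe: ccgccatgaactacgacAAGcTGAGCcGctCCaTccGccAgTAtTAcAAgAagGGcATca
ELF5, the second probe: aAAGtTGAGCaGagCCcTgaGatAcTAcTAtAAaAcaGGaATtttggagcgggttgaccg
ETS2, the third probe: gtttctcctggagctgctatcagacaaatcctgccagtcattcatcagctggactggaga
ETS1, the third probe: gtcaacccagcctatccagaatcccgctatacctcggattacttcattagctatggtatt
ETV4, the second probe: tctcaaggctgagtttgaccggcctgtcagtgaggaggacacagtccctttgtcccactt
The SPDEF and ELF5 probes matched at 25 of 44 aligned bases, which is 56.8%. Over all 19 member probes, the longest run of bases shared by a pair of probes was 9.

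The probe of the targeted gene was examined first. The intensity of PKP3 was 20900 in vec 1, 22800 in vec 2, 3410 in shpkp3-2 1 and 3080 in shpkp3-2 2. PKP3 fell by 2.54 on the log2 scale in the shpkp3-2 clone (SE 0.23, limma adjusted p = 0.0188), to 17.2% of its level in vec. The call was lost with no filter on dim probes (limma adjusted p = 0.135) and with the weaker background flag (limma adjusted p = 0.145). The arrays were alike in their summed intensity, which lay between 115635392 and 130032824, and 60.5% to 63.5% of their spots were well above background. The 75th percentile of intensity was 499 in vec 1 and 374 to 381 on the other arrays. Of the markers of simple epithelium, the tissue type of the line, 7 of 8 were well above background on every array, and VIL1 was so on 1 shpkp3-2 array. None of these 7 was called. All 7 differences were positive, from 0.04 to 0.46 with a median of 0.23, where 56.9% of all tested probes had a positive difference. For 4 of them both shpkp3-2 arrays were above both vec arrays, as was the case for 27.2% of all tested probes. The part of these markers in the values of the ETS factors was not tested. Of 7 fibroblast markers 6 were above background on no array. Of 6 haematopoietic markers 3, PTPRC, SPI1 and LYZ, were above it on no array and 3 were above it on all 4. Of the latter, CD68 rose by 1.43 (limma adjusted p = 0.0459), while CD3E was at -0.07 (limma adjusted p = 0.916) and CD79A at -0.32 (limma adjusted p = 0.671), and the summed intensity of the list was 866 and 1030 for vec, against 859 and 872 for shpkp3-2.

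Values below are normalized log2 intensities, that is the log2 intensity of a probe minus the log2 of the 75th percentile of its array, so that 0 is the level of that percentile. A difference is the shpkp3-2 mean minus the vec mean, with 2 arrays per clone, and it counted as changed where the adjusted p of limma over 30512 tested probes was at most 0.05. Over these probes the median difference was 0.05, and the 5th and 95th percentiles were -0.56 and 0.66. By this rule 1 of the 17 tested member probes rose, the third ELF5 probe, against 0.246% of all tested probes, and 0 fell, against 0.144%. With the RNA collection as a replicate block, which compares the clones within each pair of arrays, 2 were called higher, EHF and the third ELF5 probe, against 1.65% of all tested probes, and 0 lower, against 1.11%. At an unadjusted p under 0.05, 4 of the 17 were higher, against 7.35% of all tested probes, and 3 were lower, against 4.98%. Both arrays of a clone lay beyond both of the other for 5 higher and 6 lower member probes, where the background was 27.2% and 18.0%. Among the tested members, 2 probes, the third of ELF5 and the second of ETS1, entered the test through the shpkp3-2 clone alone, where a probe passes the filter by being brighter there, so that the counts of higher probes are a description. Of the 15 that every array had well above background, none was called in the fit over such probes, 2 were higher and 3 lower at an unadjusted p under 0.05 in the fit over all tested probes, and the clones did not overlap for 3 higher and 6 lower ones. For any single probe the exact permutation p of this design is 0.333 at the smallest.

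**Figure D1:**
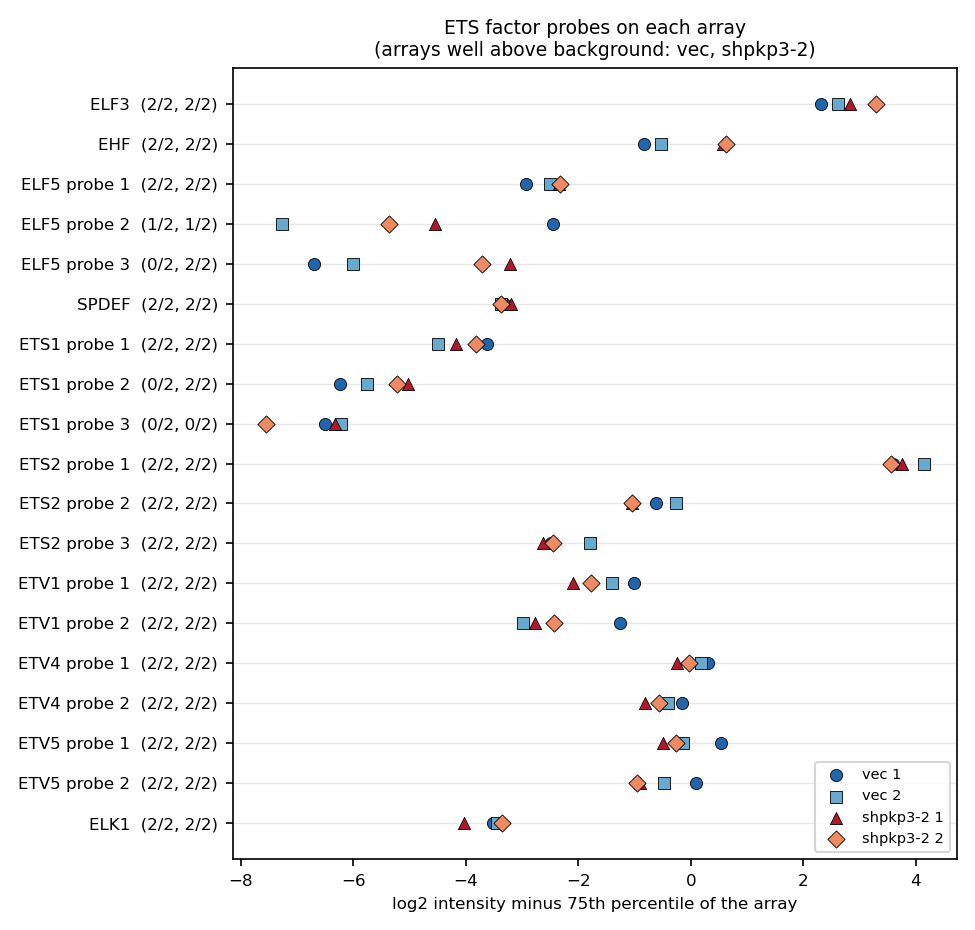
Normalized log2 intensity (horizontal axis) of the 19 ETS factor probes on each of the 4 arrays, with circles and squares for vec and triangles and diamonds for shpkp3-2. The numbers after each name are the arrays of vec and of shpkp3-2 on which the probe was well above background. The EHF symbols of shpkp3-2, at 0.58 and 0.63, lie to the right of those of vec, at -0.83 and -0.52, and the ETV5 symbols of shpkp3-2 lie to the left of those of vec. Symbols at nearly the same value cover each other.

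Of the 5 ESE probes, those of EHF and ELF3 and the first of ELF5 were well above background on all 4 arrays. Their differences were between 0.37 and 1.28 and none passed the test. For each of them both shpkp3-2 arrays were above both vec arrays, as was the case for 27.2% of all tested probes. The third ELF5 probe had only a bound in vec, and the second, at -0.10 with overlapping groups, was not tested.

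EHF acts on genes of epithelial differentiation and is expressed in the colon. Its normalized log2 value was -0.83 in vec 1 and -0.52 in vec 2, against 0.58 in shpkp3-2 1 and 0.63 in shpkp3-2 2. The shpkp3-2 arrays lay close to each other and well above both vec arrays. In intensity these arrays read 281, 266, 567 and 580 in the same order. The difference was 1.28 (SE 0.19, 95% interval 0.81 to 1.75), which is 2.43-fold, and it missed the threshold (limma adjusted p = 0.088). With the replicate block EHF passed (limma adjusted p = 0.00519), and with the crossed pairing it did not (limma adjusted p = 0.0971). EHF had a larger SE with the block, at 0.28, so its pass there does not reflect a smaller spread. Its difference was 1.41 in the first collection and 1.15 in the second. EHF also passed with another background correction, with a trended and robust prior and without vec 2.

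ELF3 is a factor of intestinal epithelium, where it acts in differentiation. Its normalized log2 value was 2.31 and 2.62 in the control clone and 2.84 and 3.30 in the knockdown clone. The clones did not overlap, although vec 2 and shpkp3-2 1 lay near each other. The difference was 0.61 (SE 0.23, 95% interval 0.03 to 1.18, 1.52-fold), which was not past the threshold (limma adjusted p = 0.386). It was 0.53 in the first collection and 0.69 in the second, and 0.37 without shpkp3-2 2.

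ELF5, which is known for its role in secretory cells of the mammary gland, had 3 probes that did not behave alike. The first, which is the brightest, read -2.92 and -2.50 for vec, against -2.35 and -2.33 for shpkp3-2. These values are close, and the difference of 0.37 did not pass (SE 0.21, 95% interval -0.14 to 0.88, limma adjusted p = 0.531). It was 0.16 without vec 1 and 0.58 without vec 2.
The third ELF5 probe read -6.69 and -6.00 in the control clone and -3.22 and -3.71 in the knockdown clone. It was well above background on both shpkp3-2 arrays and on neither vec array, so its level in vec is only bounded. It entered the test through the shpkp3-2 clone alone. Against the lowest signal detected on the vec arrays, ELF5 was at least 4.13-fold higher in shpkp3-2 by this probe, with a fitted limma adjusted p of 0.0299. Its intensities were low in every sample, at 4.83 and 5.94 for vec, against 40.6 and 28.6 for shpkp3-2, where the dimmest spots called well above background read 8.41 to 9.74. With quantile normalization its difference of 2.83 missed the threshold (limma adjusted p = 0.0623), and with normexp correction, which pulls dim spots together, it was 0.74 (limma adjusted p = 0.153). With no filter on dim probes or with the weaker background flag, the adjusted p of limma was 0.173.
The second ELF5 probe, shown above, was well above background on 1 array of each clone and was not tested. Its intensity was 91.9 in vec 1, 2.49 in vec 2, 16.3 in shpkp3-2 1 and 9.08 in shpkp3-2 2. The vec arrays lay on either side of the shpkp3-2 arrays.

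EHF and ELF5 are neighbours on chromosome 11 in the RefSeq annotation of GRCh38.p14, with 1 annotated gene and 0 protein coding genes between them, while ELF3 is on chromosome 1. The array can only report the level of each transcript. Whether the neighbouring position bears on these values was not tested.

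SPDEF was dim and nearly equal in the clones. It read -3.32 and -3.38 in the control clone and -3.20 and -3.37 in the knockdown clone, and the groups overlapped. The difference was 0.07, with a 95% interval from -0.37 to 0.50 (limma adjusted p = 0.904).

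**Figure D2:**
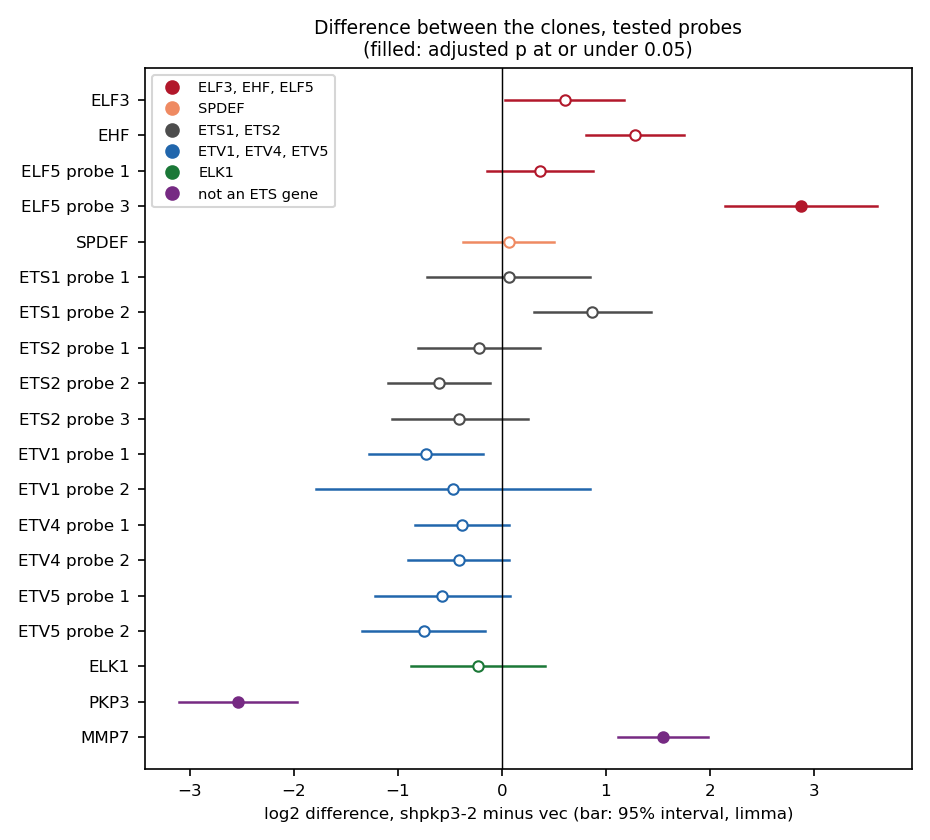
Log2 difference, shpkp3-2 minus vec (horizontal axis), of the 17 tested ETS factor probes and of PKP3 and MMP7, with 95% intervals from limma as bars and colors by group of the family. Filled points passed the adjusted p. The ESE points lie to the right of 0 and the PEA3 points to the left, and the third ELF5 probe is the only filled ETS point. That point and the second ETS1 probe are set against background in vec, so that their places on the axis are fitted values. Their bounds of at least 4.13-fold and at least 1.31-fold are computed against the lowest detected signal in vec. These bounds hold for the main processing only, and the fitted log2 differences were 0.74 and 0.28 with normexp correction.

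All 6 probes of the PEA3 genes ETV1, ETV4 and ETV5 had negative differences, from -0.75 to -0.38 with a median of -0.52, and none passed the test. In 5 of the 6, both shpkp3-2 arrays were below both vec arrays, as was the case for 18.0% of all tested probes. The 6 are pairs of probes for the same genes, and so are not independent.

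ETV5 was measured by 2 probes. The second read 0.10 and -0.48 for vec, against -0.91 and -0.96 for shpkp3-2. Its difference of -0.75 (SE 0.24, 95% interval -1.34 to -0.16) was not called (limma adjusted p = 0.315), and it was -0.46 without vec 1 and -1.04 without vec 2. The first ETV5 probe read 0.53 and -0.14 in the control clone and -0.49 and -0.27 in the knockdown clone, a difference of -0.57 (limma adjusted p = 0.456) that was -0.24 without vec 1 and -0.91 without vec 2. For both probes vec 1 was the highest array, and the difference was larger in the first collection, at -1.01 and -1.02, than in the second, at -0.13 and -0.49.

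ETV4 was also measured by 2 probes. The first read 0.30 and 0.19 for vec, against -0.24 and -0.03 for shpkp3-2, a difference of -0.38 (SE 0.18, limma adjusted p = 0.475). The second, whose sequence is given above, read -0.15 and -0.40 in the control clone and -0.81 and -0.57 in the knockdown clone, a difference of -0.41 (SE 0.20, limma adjusted p = 0.470). The ETV4 probes thus gave nearly the same difference, and the groups did not overlap on either.

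ETV1, the remaining PEA3 factor, gave unlike results on its 2 probes. In intensity the first read 249 and 144 in the control clone and 89.3 and 109 in the knockdown clone, a difference of -0.73 on the log2 scale (SE 0.22, 95% interval -1.28 to -0.18, limma adjusted p = 0.305). In normalized log2 values the second read -1.26 and -2.99 in the control clone and -2.77 and -2.43 in the knockdown clone, where the vec arrays were far apart and the groups overlapped. Its difference of -0.47 (SE 0.54, limma adjusted p = 0.750) had opposite signs in the collections, at -1.50 and 0.57.

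**Figure D3:**
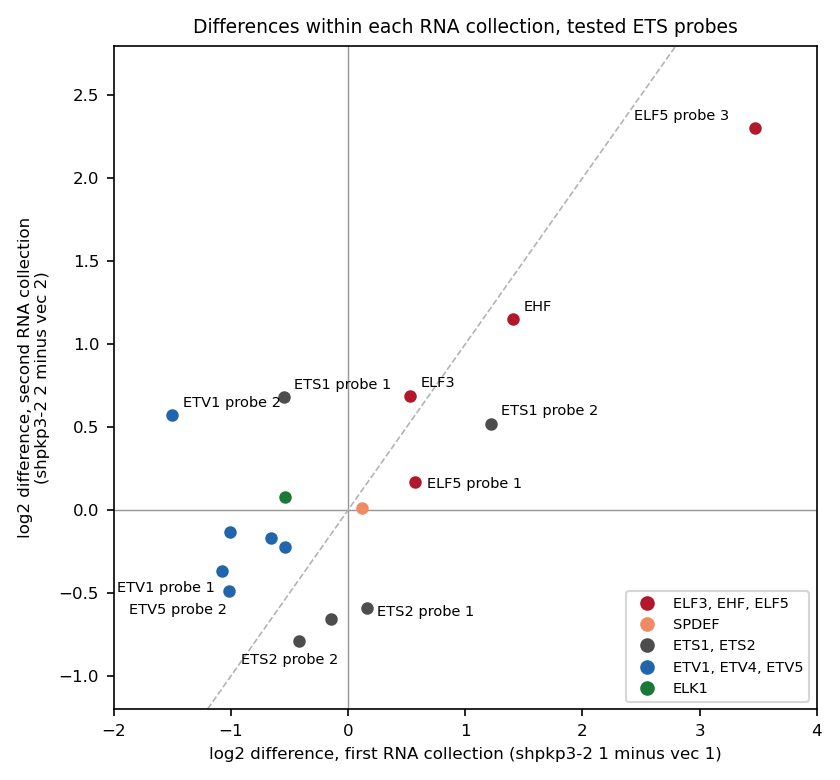
Log2 difference between the clones in the first RNA collection (horizontal axis, shpkp3-2 1 minus vec 1) and in the second (vertical axis, shpkp3-2 2 minus vec 2) for the 17 tested ETS factor probes, with the dashed line where they are equal. The 4 ESE points lie in the upper right, 5 of the 6 PEA3 points in the lower left, and the second ETV1 probe and the first probes of ETS1 and ETS2 have opposite signs on the axes, as does the ELK1 probe. Of the ESE points, the third ELF5 probe was tested through shpkp3-2 alone and is set against background in vec. The second ELF5 probe, at -2.1 and 1.9, was not tested and is not shown.

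ETS2, a broadly expressed factor, had a bright first probe that read 3.60 and 4.15 for vec, against 3.75 and 3.57 for shpkp3-2. These values overlapped, and the difference was -0.22 (limma adjusted p = 0.742). The second ETS2 probe read -0.62 and -0.26 in the control clone and -1.05 and -1.04 in the knockdown clone, which did not overlap. Its difference was -0.60 (SE 0.20, 95% interval -1.09 to -0.11, limma adjusted p = 0.327). The third read -2.48 and -1.79 for vec, against -2.63 and -2.45 for shpkp3-2, a difference of -0.41 (limma adjusted p = 0.577) that was -0.06 without vec 2 and -0.75 without vec 1. All 3 ETS2 probes were negative in the second collection, and the first was positive, at 0.16, in the first collection.

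ETS1, best known from lymphoid and endothelial cells, was close to background. Its first probe read -3.62 and -4.49 in the control clone and -4.17 and -3.82 in the knockdown clone, with a difference of 0.07 that had opposite signs in the collections, at -0.55 and 0.68 (limma adjusted p = 0.951). The second was well above background on the shpkp3-2 arrays alone, and was at least 1.31-fold higher there by the same bound (fitted limma adjusted p = 0.247). With normexp correction the fitted difference of this probe was 0.28. The third ETS1 probe was above background on no array. No direction can be read for ETS1 from these probes.

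ELK1 was also dim. It read -3.51 and -3.44 for vec, against -4.04 and -3.36 for shpkp3-2, and the groups overlapped. The difference was -0.23, with a 95% interval from -0.87 to 0.42 (limma adjusted p = 0.752).

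A 2-fold rule, given with the supplementary HCT116 data of the study, asks for a log2 difference of at least 1 to the vec mean, in either direction, on each shpkp3-2 array. By it 2 member probes were higher, EHF and the third ELF5 probe, against 1.12% of all tested probes, and 0 were lower, against 0.623%. The functional classification of HCT116 genes in the study used a lower fold cut, which was not applied here. The ELF5 difference is taken against background, and with detection on all 4 arrays 1 probe, EHF, remains. The SD over the arrays was larger in vec than in shpkp3-2 for 14 of the 19 member probes. Over all tested probes the median SD was 0.20 in vec and 0.12 in shpkp3-2.

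MMP7 encodes matrilysin, a secreted protease of epithelial cells, and its promoter is a known ETS target. Its normalized log2 value was -1.61 and -1.51 in the control clone and 0.03 and -0.05 in the knockdown clone. The clones were far apart against the spread of either. MMP7 rose by 1.55 (SE 0.17, 95% interval 1.12 to 1.98, limma adjusted p = 0.0399), which is 2.93-fold. The call was lost without either shpkp3-2 array, where the differences of 1.51 and 1.59 had limma adjusted p of 0.132 and 0.104, and with quantile normalization at 1.54 (limma adjusted p = 0.0543). It was also lost with no filter on dim probes (limma adjusted p = 0.224) and with the weaker background flag (limma adjusted p = 0.175), and with a crossed pairing of the arrays (limma adjusted p = 0.0564). PTP4A3 encodes PRL-3, a phosphatase that the study followed as a protein, a level that arrays do not measure. For the mRNA, the paper cites earlier work in which PRL-3 did not increase in HCT116 knockdown cells. The PTP4A3 difference here was -0.35 (limma adjusted p = 0.522), and the effect was -0.20 without shpkp3-2 1.

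The 250 bases before the MMP7 start in RefSeq (GRCh38.p14, chr11:102530748-102530997, minus strand) are given 5′ to 3′ to show the ETS core letters beside the gene that rose. Capitals mark TTCC, which is GGAA read on the other strand, and TGAGTCA, the letters bound by AP-1.
MMP7 promoter: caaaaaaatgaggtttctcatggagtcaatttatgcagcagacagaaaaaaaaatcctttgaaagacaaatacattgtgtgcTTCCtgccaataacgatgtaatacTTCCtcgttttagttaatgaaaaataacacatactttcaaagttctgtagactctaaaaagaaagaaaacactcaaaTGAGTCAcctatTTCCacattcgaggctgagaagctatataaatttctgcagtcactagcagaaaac
The letters TTCC begin 168, 144 and 55 bases before the start, and TGAGTCA begins 67 bases before it. Searched on both strands, GGAA occurred at least as often as in MMP7, where it was found 3 times, in 55.1% of 35116 RefSeq promoter windows of the same length. The longer AGGAAG, which overlaps GGAA, was found 2 times in MMP7, and 5.45% of windows held it at least as often. TGAGTCA was found 1 time, and 4.20% of windows held it. A match describes the letters only, and binding was not measured.

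Genes related to the 10 factors were read from lists, with the brightest probe for each gene. Of 18 other ETS family genes, 12 were tested and none was called, with a median difference of 0.03, while 6 were above background on no array, namely FLI1, FEV, ETV2, ETV3L, SPI1 and SPIC. ETV7, which encodes a repressor of the family, had the largest difference among the 12, at 1.30 (SE 0.34, limma adjusted p = 0.238). Its intensity was 77.6 and 113 for vec, against 227 and 174 for shpkp3-2, and the groups did not overlap. ETV7 passed with the replicate block (limma adjusted p = 0.00906) and not with the crossed pairing (limma adjusted p = 0.111). Its difference was 1.76 without vec 2 and 0.83 without vec 1. The next was ELF1 at 0.41 (limma adjusted p = 0.480), which was 0.23 without vec 2. The most negative were ERF, a repressor under ERK control, at -0.28 (limma adjusted p = 0.593) and -0.14 without vec 1, and ERG at -0.10 (limma adjusted p = 0.849).

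None of the 12 partners and regulators of ETS factors was called, and their median difference was 0.03. The coactivator CREBBP was at 0.50 (limma adjusted p = 0.562) on its brightest probe, although its probes ranged from -0.28 to 0.50, and this value was 0.06 without vec 1 and 0.94 without vec 2. FBXW7, a ubiquitin ligase subunit, was at 0.37 (limma adjusted p = 0.480) on its brightest probe and at -0.03 on the other. The corepressor SIN3A was at -0.44 (limma adjusted p = 0.477), with -0.24 without vec 1, and DET1, part of the ligase that degrades PEA3 factors, at -0.26 (limma adjusted p = 0.584).

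In the RAS-ERK cascade and its feedback genes, 14 of 17 tested genes had a negative difference on their brightest probe, with a median of -0.23, and none was called. Of all tested probes, 43.1% had a negative difference. Probes of a gene did not always share a sign, and SPRED3, at -0.30 on its brightest probe, had another at 0.96. DUSP6 is a phosphatase induced by ERK that acts on ERK. Its normalized log2 value was 4.94 and 4.47 in the control clone and 3.74 and 3.97 in the knockdown clone. Both vec values were above those of shpkp3-2, and the difference was -0.85 (SE 0.23, limma adjusted p = 0.250). SPRED2, an inhibitor of the cascade, read 322 and 117 for vec, against 81.9 and 98.5 for shpkp3-2, a difference of -0.90 (SE 0.36, limma adjusted p = 0.402). Without vec 2 it was -1.44 and was called (limma adjusted p = 0.0439), and without vec 1 it was -0.37 (limma adjusted p = 0.480). DUSP4, a related phosphatase, lay on the other side at 0.80 (SE 0.21, limma adjusted p = 0.240), and EGFR was at 0.36 (limma adjusted p = 0.667), with another probe at 0.95, but at -0.07 without vec 2 and 0.78 without vec 1.

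**Figure D4:**
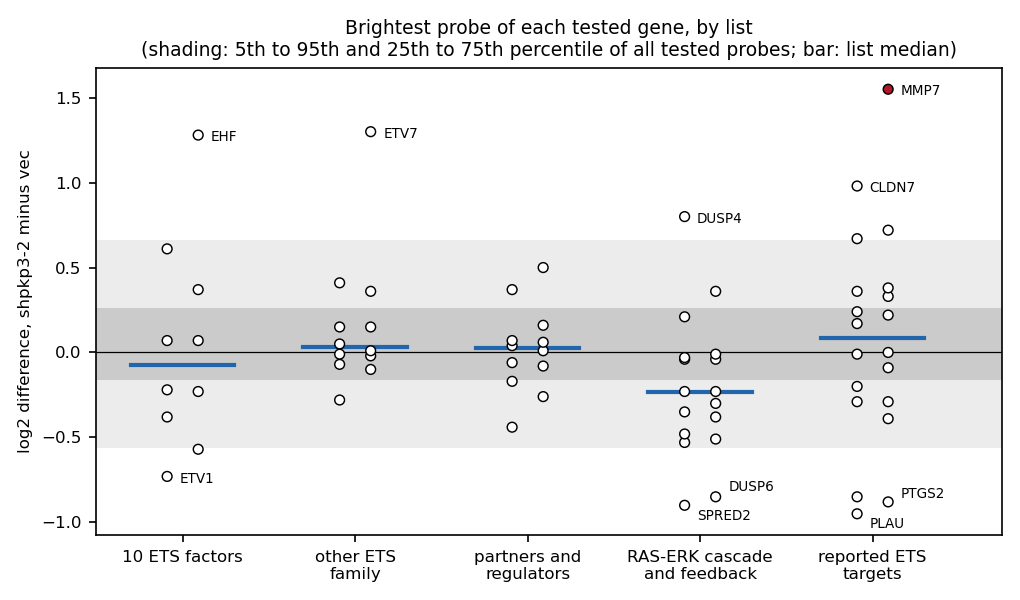
Log2 difference, shpkp3-2 minus vec (vertical axis), of the brightest probe of each tested gene in the 10 ETS factors and the 4 related lists. Blue bars are list medians, shading spans the 5th to 95th and 25th to 75th percentiles of all tested probes, and MMP7 at 1.55 is the only filled point, which marks an adjusted p past the threshold. The median of the RAS-ERK list is at -0.23, and those of the other lists lie between -0.08 and 0.09.

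Of 24 reported target genes of ETS factors, 23 had a probe, 20 were tested and 1 rose, against 0.246% of all tested probes, with none lower, against 0.144%, and a median of 0.09. The 1 is MMP7, the gene for which the factors were chosen. CLDN7, a tight junction claudin reported as a target of ELF3, read 4050 and 3710 in the control clone and 6040 and 7270 in the knockdown clone in intensity. Its difference was 0.98 (SE 0.20, limma adjusted p = 0.169). CLDN7 passed with the replicate block (limma adjusted p = 0.0445) and with normexp correction (0.97, limma adjusted p = 0.0474), but not with the crossed pairing (limma adjusted p = 0.157). PLAU, the urokinase gene and a target of ETS1, ETS2 and PEA3 factors, read 4640 and 4090 for vec, against 1960 and 1930 for shpkp3-2. Its difference was -0.95 (SE 0.18, limma adjusted p = 0.145), and it was called with normexp correction at -0.98 (limma adjusted p = 0.0312). PTGS2, which encodes cyclooxygenase 2, was at -0.88 (limma adjusted p = 0.399), but at -0.08 with normexp correction and -0.41 without shpkp3-2 1.

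Markers of stratified keratinocytes were examined because ESE factors are also active in these cells. Their summed intensity was 2440 and 2030 in the control clone and 3180 and 3310 in the knockdown clone, and 3 of 7 were well above background on all 4 arrays. Most of this sum is KRT15, at 2160 and 1770 for vec, against 2710 and 2900 for shpkp3-2, a difference of 0.73 (limma adjusted p = 0.221). KRT14 was at 0.05 with overlapping groups (limma adjusted p = 0.957), and KRT5 and DSG3 were above background on no array. COL17A1 had a difference of 1.36 (limma adjusted p = 0.0683) and passed with the replicate block (limma adjusted p = 0.00272). The part of other cell types in the ESE values was not tested.

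**Figure D5:**
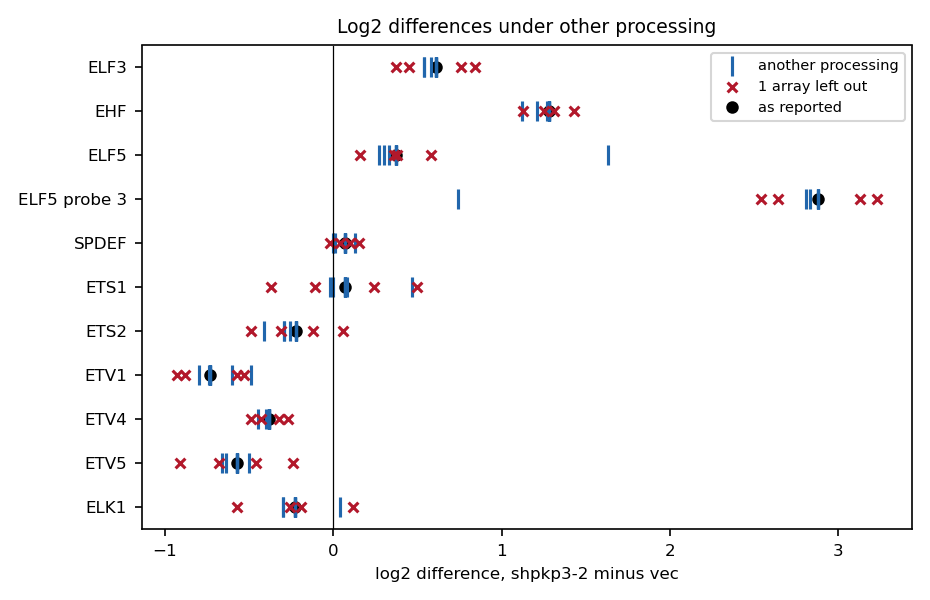
Log2 difference, shpkp3-2 minus vec (horizontal axis), of the brightest probe of each ETS factor and of the third ELF5 probe, as reported (black), under other processing (blue bars) and with 1 array left out (red crosses). EHF stays between 1.12 and 1.43 and ELF3 between 0.37 and 0.84, while SPDEF, ETS1, ETS2 and ELK1 have points on both sides of 0, and the third ELF5 probe, fitted against background in vec, ranges from 0.74 to 3.23. The ELF5 bar at 1.63 is the mean over probes that takes in the third.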

How the data were processed

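The arrays were grouped by the clone names in the labels. The authors hybridized Cy3 labeled RNA and deposited the Feature Extraction output of each array. Its processed signal, the deposited intensity used here, is linear, background subtracted and detrended, with no normalization between arrays. The deposited files also hold uncorrected mean and background intensity and 0 or 1 flags, another kind of value. The submitters' processing notes name Feature Extraction 9.1, while the file headers name 10.7.3.1 and a design on hg18. Probe names in the files are of a custom design, where the methods give a catalogue array. The labels and the methods name different drugs for selection.

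The log2 processed signal minus the log2 of the 75th percentile over 51538 non-control spots was taken per array, outlier spots (26 to 39 per array) were dropped, and spots of a probe were averaged. No member probe was saturated. A probe was tested if both arrays of 1 or both clones had it well above background, with limma 3.58.1 in R 4.3.3 (all 4 arrays, no covariates, Benjamini-Hochberg over 30512 probes, threshold 0.05). Where a probe was detected in 1 clone alone, the bound set the mean of that clone against the higher of the lowest detected signal and the probe's own value on each array of the other. P-values measure the spread between these arrays, and 2 arrays per clone limit the precision.

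Probes were matched to genes by the name in the files. Where a gene had several, the brightest over the 4 arrays gave its value. Named genes were the 10 factors, PKP3, MMP7 and PTP4A3, the 2 highest and 2 lowest genes of each list and every called gene in it. SPRED3, and CD68, COL17A1 and the other cell markers, fall outside this rule and were named after their values were seen. ETS family genes above background on no array were named where they were counted. The members and lists were chosen with earlier results of these data known. Promoter sequence and gene order came from RefSeq (GRCh38.p14), and all 10 genes were matched there.

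The design text pairs the arrays by RNA collection. The deviations of arrays with the same number correlated at -0.199, so that over all probes the pairing did not narrow the spread of the differences. The fit with the collection as a block is an alternative, and a call gained with it alone is a description. The fit was tested on simulated data. Alternatives covered background correction, normalization, the filter, the block, the prior, the choice of probe and leaving out each array. Python 3.11.15 with pandas 2.3.3 and matplotlib 3.10.9 was used for sequences and figures.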

Additional observations from a re-analysis of the deposited data

How the results depend on the processing

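The number of member probes called higher was 1. It was 0 with quantile normalization, with no filter on detection, with probes well above background on all 4 arrays and with the weaker flag, and 2, EHF and the third ELF5 probe, with the trended and robust prior. It was 1 to 2 when each array was left out in turn, with 2 without vec 2. No member probe was called lower under any of these. With RNA collection as a replicate block, 2 member probes were called higher and 0 lower, and over all probes 503 were higher and 338 lower, against 75 and 44 without it. A crossed pairing, added after seeing the data, called 1 member probe higher and 0 lower, and 64 and 40 of all probes. Over all probes the calls were 42 and 32 with quantile normalization, 25 and 21 with detection on all 4 arrays, 10 and 8 with no filter, 1 and 1 with the weaker flag, 181 and 76 without vec 1, and 400 and 202 without vec 2. The 2-fold rule gave 2 higher member probes, 1 with normexp correction, 1 with detection on all 4 arrays and 3 without vec 2, and 0 lower ones, which became 0 to 3 when an array was left out, with 3 without vec 2.

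Some small differences changed sign. ELK1 was 0.04 with normexp correction, and -0.57 to 0.12 with an array left out, the latter without shpkp3-2 1. ETS1 was -0.02 with quantile normalization, 0.00 with median centring, -0.37 without vec 2, -0.11 without shpkp3-2 2 and 0.50 without vec 1. SPDEF was 0.00 with median centring and -0.02 to 0.15 with an array left out, the former without shpkp3-2 1. The second ETV1 probe was 0.40 without vec 1 and -1.33 without vec 2, ETS2 was 0.06 without vec 2 and -0.49 without vec 1, and EGFR was -0.07 without vec 2 and 0.78 without vec 1. The cause was not tested. ELF3, EHF, ELF5, ETV4, ETV5 and the first ETV1 probe kept their direction in every alternative run. An array left without its partner was assumed to vary like the other clone. Dim probes, those of ELF5, ETS1, SPDEF and ELK1 among them, lie nearest to background, where the background correction has most weight.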
